A study of Mus musculus with 8 samples.

Results

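Transcripts of 47 genes of the synaptic vesicle and of regulated exocytosis were followed in the superior cervical ganglion (SCG), the sympathetic ganglion of the neck, of newborn mice that lacked or kept the kinesin motor gene Kif1b in noradrenergic cells. The 47 genes were taken by symbol from a fixed list of vesicle membrane proteins, synapsins, Rab3 GTPases, synaptotagmins, SNARE proteins and their partners, active zone proteins and an adaptor of vesicle recycling, with no measured value in the rule. That list was nonetheless chosen with earlier results of these data known. All 47 were found among the 23827 rows of the count table, on 48 rows because Rims1 stood on 2, and all 48 rows were among the 14592 tested. The 4 control mice had the genotype KIF1Bb fl/fl :DBHcre -/- and the 4 conditional knockout (cKO) mice KIF1Bb fl/fl :DBHcre +/-. All were of strain C57Bl6/n and at postnatal day 1, and each library came from the pair of ganglia of 1 animal. Both groups carry the floxed gene and only the cKO mice carry Cre, so the loss of Kif1b and the presence of Cre cannot be told apart. Cre is driven by the dopamine beta-hydroxylase (Dbh) promoter, which is active in noradrenergic neurons, whereas the glia, vessels and connective tissue of the ganglion keep the gene.

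Synaptic vesicles store transmitter at nerve endings and in axonal varicosities, and sympathetic neurons release noradrenaline from vesicles of both the small synaptic and the dense-core type. Active zone scaffolds hold a vesicle at the release site, Rab3 GTPases tether it, priming factors prepare it, SNARE proteins fuse it with the plasma membrane, synaptotagmins sense the calcium that starts fusion, and NSF with its SNAP partners takes the spent SNARE complexes apart. KIF1B and the related KIF1A are kinesins that carry vesicle precursors along axons, and the adaptor MADD, a GDP-GTP exchange factor for Rab3, links these motors to Rab3-bearing vesicles. The proteins act in the axon, but their mRNAs are made and largely kept in the cell body, which is what the ganglion contributes to such libraries.

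The 8 libraries held between 16214912 and 18114418 counts, and Kif1b checked the labels. Kif1b was at 1224 ± 222 CPM (counts scaled to library size, here with TMM scaling; SD, n = 4) in controls and at 260 ± 52.7 CPM in cKO, a log2 ratio of cKO to control of -2.24 (SE 0.18; edgeR adjusted p = 3.43e-04) with no overlap. The noradrenergic identity of the tissue was present in both groups: Th, the rate-limiting enzyme of catecholamine synthesis, was at 1344 ± 107 and 1233 ± 74.7 CPM, and Dbh at 2421 ± 195 and 2117 ± 69.7 CPM. Markers of other cells moved with the groups. Of the tested markers, 5 of 9 of fibroblasts, 3 of 8 of endothelium, 2 of 7 of mural cells, 1 of 11 of glia and 0 of 7 of macrophages passed as higher in cKO, and their summed levels did not overlap for fibroblasts (5221 to 6734 CPM in controls, 7259 to 10660 in cKO), endothelium (151.6 to 208.1, 258.3 to 274.1), mural cells (188.9 to 204.7, 285.4 to 386.9) and glia (983.3 to 1215, 1296 to 1516). Of 13 noradrenergic markers 0 passed (median log2 ratio -0.12), and their summed level was 12820 to 13490 CPM in controls and 10840 to 11730 in cKO. The summed level of 20 pan-neuronal genes was between 27890 and 31000 CPM in controls and between 24580 and 27390 CPM in cKO. Single libraries also stood apart: markers of muscle and cartilage summed to 107.8 CPM in control 1 and 196.8 CPM in cKO 1, against 50.22 to 74.76 CPM in the others, and markers of sensory neurons to 76.3 CPM in control 4 and 174.5 CPM in cKO 4, against 30.18 to 48.24 CPM in the others. In such whole-ganglion RNA, fewer neurons and less RNA per neuron cannot be told apart, and the part of the non-neuronal markers in the results that follow was not tested.

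Vesicle genes differed widely in abundance. CPM values were divided by the kilobases of each gene's annotated exons to compare genes with each other. On that scale Syt4, a synaptotagmin of dense-core and neuropeptide vesicles that binds calcium weakly, was the most abundant of the 47 genes, at 453.9 ± 21.77 CPM per kb in controls, which is the 99.7th percentile of tested genes. Cplx1, a complexin that clamps and promotes fusion at the SNARE complex, followed at 200.7 ± 15.83 CPM per kb, and Syt11, a synaptotagmin without calcium binding, at 192.2 ± 26.71 CPM per kb. The common vesicle and fusion genes were near these in control means per kb: Rab3b 149.4, Syngr3 139.4, Vamp2 135.0, Syt1 132.9, Syn2 125.6, Rab3a 112.4, Snap25 108.7, Syp 98.35 and Syn1 85.8 CPM per kb. The long active zone genes were lower per length, among them Erc2 at 11.54, Unc13a at 9.924, Bsn at 6.887 and Pclo at 6.684 CPM per kb. Syt2, a fast calcium sensor, was at 2.477 CPM per kb, and Sv2b was the lowest at 0.05573 CPM per kb.

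Across the 48 rows, 3 passed as lower in cKO (Rab3c, Syt4 and Syt2), 0 passed as higher, and 45 did not pass, by edgeR's quasi-likelihood test at a Benjamini-Hochberg adjusted p below 0.05 over all tested rows. Over all 14592 tested rows, 1.12% passed as lower and 1.6% as higher. At an unadjusted p below 0.05, 27 of the 48 rows were lower and 2 higher, where 7.42% of all tested rows were lower and 9.42% higher. When libraries were scaled to pan-neuronal genes, as described further on, 6 of the 48 rows and 1.91% of all tested rows were lower at that p. Under that scaling 2 of the 48 rows were higher at that p, and the share of all tested rows that were higher at it was not taken. At an edgeR adjusted p below 0.05, 0 of the 48 rows and 1116 of the 14592 tested rows were higher under the same scaling. Without that scaling, the fold change was negative in 44 of 48 rows and in 50.1% of all tested rows. With it, 37 of 48 rows were negative, while the median of all tested rows was 0.20. Without it, the median log2 fold change was -0.28 over the 48 rows, within a range of -0.94 to 1.50, against -6e-04 over all tested rows. The 4 libraries of each group did not overlap, with cKO lower, in 13 of 48 rows (27.1%), against 5.02% of all tested rows. That share was near those of other neuronal lists, 5 of 20 pan-neuronal genes (25%) and 3 of 13 noradrenergic markers (23.1%). The 13 of the 48 rows were Rab3c, Rab3d, Syt2, Syt4, Syt7, Syt9, Syt12, Syt17, Syn2, Syngr3, Stx1a, Napb and Cadps. In 1 of the 48 rows, Sv2b, the groups did not overlap with cKO higher, as in 875 of all 14592 tested rows. Sv2b held 12 counts in control 1 and 13 in cKO 1, so its groups were barely apart. The 47 genes together took 1.27, 1.28, 1.24 and 1.26% of the counts in control 1 to 4 and 1.08, 0.998, 1.05 and 1.11% in cKO 1 to 4, with no overlap.

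**Figure D1:**
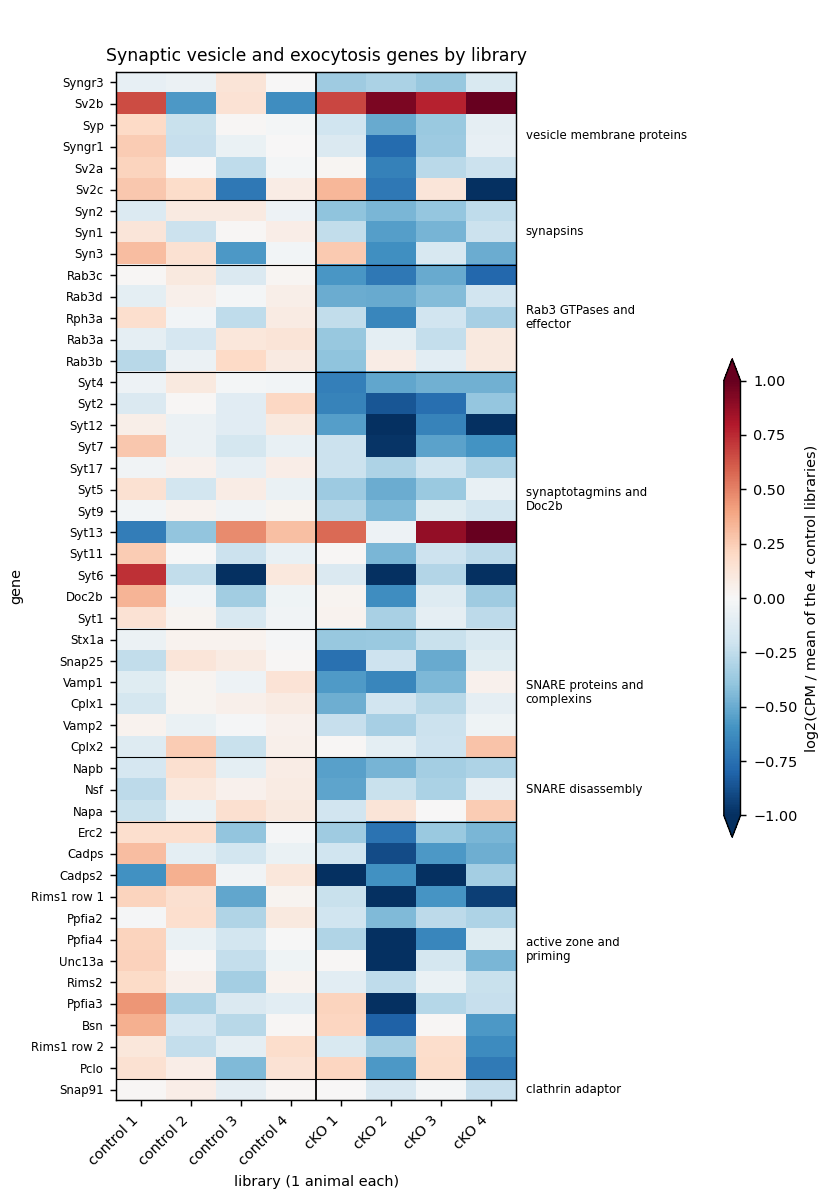
Heat map of the 48 rows, ordered by role, in the 8 libraries. Colour is log2 of the CPM over the gene's control mean (blue lower, red higher). Most rows are blue in the 4 cKO columns, most deeply Syt12 (-0.94 by the fit), while Sv2b and Syt13 are red.

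The Rab3 GTPases, small G proteins that sit on vesicles and tether them for release, were led by Rab3c, which had the smallest p of the 48 rows. Rab3c lies on chromosome 13 from 110054187 to 110280996, minus strand, in GENCODE vM21 on GRCm38. Rab3c was at 325, 346, 292 and 327 CPM in control 1 to 4 and at 216, 197, 228 and 188 CPM in cKO 1 to 4. The highest cKO library was thus well under the lowest control. Its mean fell from 323 ± 22.2 to 207 ± 18.2 CPM (SD, n = 4 each), a log2 ratio of -0.64 (SE 0.10; edgeR adjusted p = 0.0110), and an exact two-sided permutation test of log2 CPM gave p = 0.0286, the smallest that 4 libraries against 4 allow. The permutation test was run only for genes that had passed, and any gene whose groups do not overlap gives this same p. It thus adds nothing to the lack of overlap. Rab3c lost the call when control 2 (edgeR adjusted p = 0.0549) or control 4 (edgeR adjusted p = 0.0587) was left out. Its log2 ratio stayed between -0.69 and -0.60 over the 8 fits with 1 library left out.

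Its paralogs had smaller differences and did not pass. Rab3d, a form best known from secretory granules, was at 155, 172, 164 and 172 CPM in controls and 118, 117, 123 and 145 CPM in cKO, without overlap (log2 ratio -0.40, SE 0.10; edgeR adjusted p = 0.0649). Rab3a, the main isoform of brain synapses, was at 235, 222, 270 and 274 CPM in controls and 192, 233, 212 and 267 CPM in cKO. The groups overlapped, and the log2 ratio of -0.14 (SE 0.12; adjusted p = 0.643) turned to 0.06 when scaled to pan-neuronal genes. Rab3b overlapped as well, between 433.4 and 606 CPM in controls and 399.2 and 562.8 CPM in cKO (log2 ratio -0.07, SE 0.14; 0.14 when scaled to pan-neuronal genes). Rph3a encodes rabphilin, an effector that binds GTP-loaded Rab3, and had a log2 ratio of -0.35 (SE 0.13; adjusted p = 0.203). Within the Rab3 family, Rab3b made up 45.4 ± 2.53% of the level per length in controls and 48.8 ± 2.18% in cKO, and Rab3c 8.24 ± 1.17% and 6.01 ± 1.19%, both with overlap. These shares depend on the annotated exon lengths, 12049 bases for Rab3c and 2226 for Rab3a. By CPM alone, the control mean of Rab3c (323) was above that of Rab3a (250). Whether the 4 paralogs differed from each other in response was not tested.

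**Figure D2:**
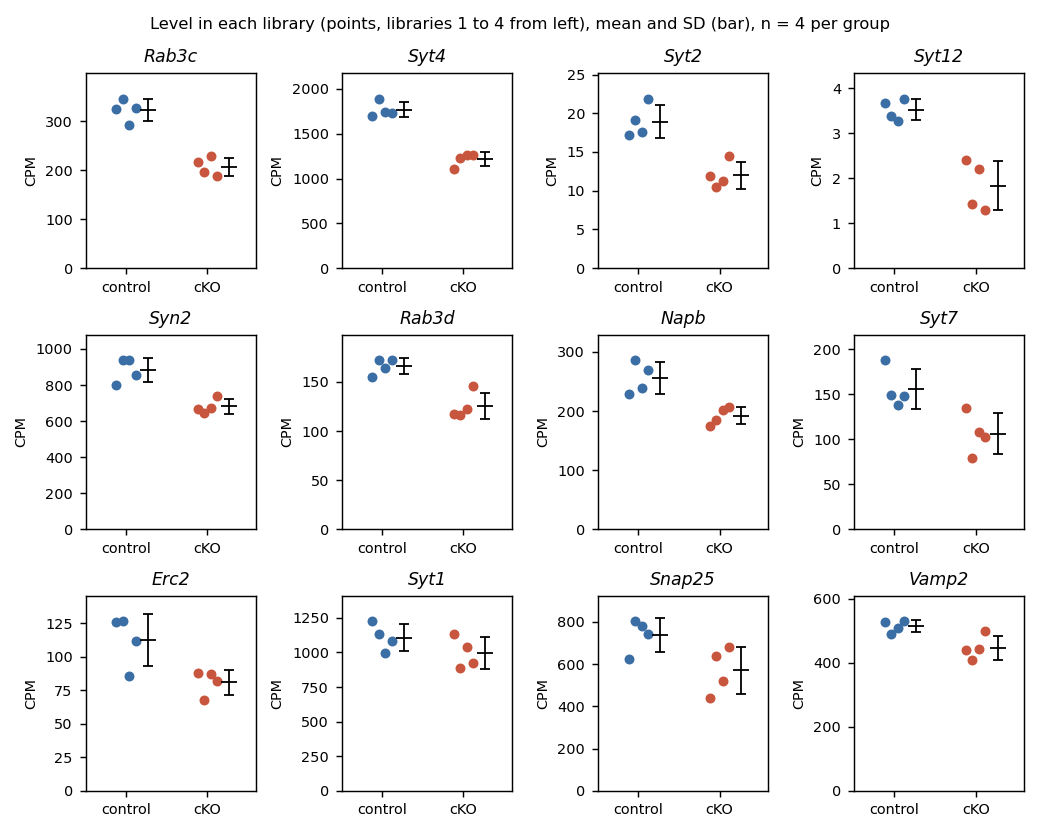
CPM in each library (points) with group mean and SD (bars) for 12 genes, 4 control and 4 cKO libraries each. The groups are apart for Rab3c, Syt4, Syt2, Syt12, Syn2, Rab3d, Napb and Syt7, and share values for Erc2, Syt1, Snap25 and Vamp2.

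The synaptotagmins, calcium sensors and related proteins of vesicle and granule membranes, held both other genes that passed. Syt4 was at 1701, 1891, 1743 and 1730 CPM in control 1 to 4 and at 1101, 1232, 1266 and 1267 CPM in cKO 1 to 4. No library of either group came near the other group. The mean fell from 1766 ± 84.7 to 1217 ± 78.6 CPM, a difference of -31.1% of the control mean (log2 ratio -0.54, SE 0.09; edgeR adjusted p = 0.0121; exact permutation p = 0.0286). Syt4 also lost the call without control 2 (adjusted p = 0.0577) or control 4 (adjusted p = 0.0592), at log2 ratios of -0.56 to -0.50 over the 8 fits. Of the 50-base stretches of Syt4's annotated transcript, 10.9% also occur in other genes, mainly in the predicted gene Gm26658. This share was above 5% in 8 of the 47 genes, among them Ppfia2 (23.5%), Syt12 (17.0%) and Syp (16.1%).

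Syt2 was far less abundant than Syt4 and passed as well. Its level was 17.2, 19.1, 17.5 and 21.9 CPM in controls and 11.9, 10.4, 11.2 and 14.5 CPM in cKO, with library 4 the highest of each group. The mean fell from 18.9 ± 2.15 to 12.01 ± 1.74 CPM (log2 ratio -0.66, SE 0.14; edgeR adjusted p = 0.0367; exact permutation p = 0.0286). This call was lost in 6 of the 8 fits with 1 library left out, all but those without control 1 or cKO 4, while the log2 ratio lay between -0.76 and -0.58. Syt2, on chromosome 1 from 134646677 to 134762593, plus strand, overlaps Ppp1r12b on the opposite strand. Of the 47 genes, 8 overlap a tested gene in this way, Syn1 and Syn2 among them. No source used here says if reads were counted by strand.

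Among the other synaptotagmins, Syt12 and Syt7 had log2 ratios of similar or larger size without passing. Syt12, a form that lacks calcium-binding residues, was at 3.68, 3.38, 3.26 and 3.77 CPM in controls and 2.40, 1.43, 2.21 and 1.29 CPM in cKO. These levels rest on 54 to 62 counts in controls and 24 to 42 in cKO, and the log2 ratio was -0.94 (SE 0.23; edgeR adjusted p = 0.0549). Syt7, a slow, high-affinity sensor of vesicle replenishment and dense-core release, was at 188, 150, 138 and 148 CPM in controls and 135, 79.2, 108 and 103 CPM in cKO (log2 ratio -0.56, SE 0.16; adjusted p = 0.102). The highest cKO library of Syt7 stood close under the lowest control.

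Syt1, the main fast calcium sensor of many synapses, was at 1225, 1131, 993 and 1082 CPM in controls and 1133, 885, 1042 and 922 CPM in cKO. The groups overlapped, and the log2 ratio of -0.15 (SE 0.11; edgeR adjusted p = 0.553) turned to 0.05 when scaled to pan-neuronal genes. Syt11 was at 1190, 999, 860 and 953 CPM in controls and 1010, 728, 865 and 837 CPM in cKO, also with overlap (log2 ratio -0.22, SE 0.13). Syt9, a fast sensor like Syt1, and Syt17, a form of secretory and endosomal traffic, did not overlap between groups at log2 ratios of -0.25 (SE 0.10) and -0.26 (SE 0.09). Syt5, Syt6 and Doc2b, the last a calcium-binding promoter of release, had log2 ratios of -0.32 (SE 0.12), -0.62 (SE 0.39) and -0.25 (SE 0.17), with overlap. Syt13 was the exception in sign at 0.78 (SE 0.34), from 2.47 ± 0.910 to 4.27 ± 1.72 CPM, with its highest value, 6.47 CPM, in cKO 4. Over the 12 genes, 2 passed as lower, 11 had negative fold changes and the median was -0.29. Summed per length over the 11 synaptotagmins, Syt4 made up 49.8 ± 2.75% in controls and 44.4 ± 3.85% in cKO with overlap, and Syt1 14.5 ± 0.672% and 16.9 ± 1.41% without overlap.

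**Figure D3:**
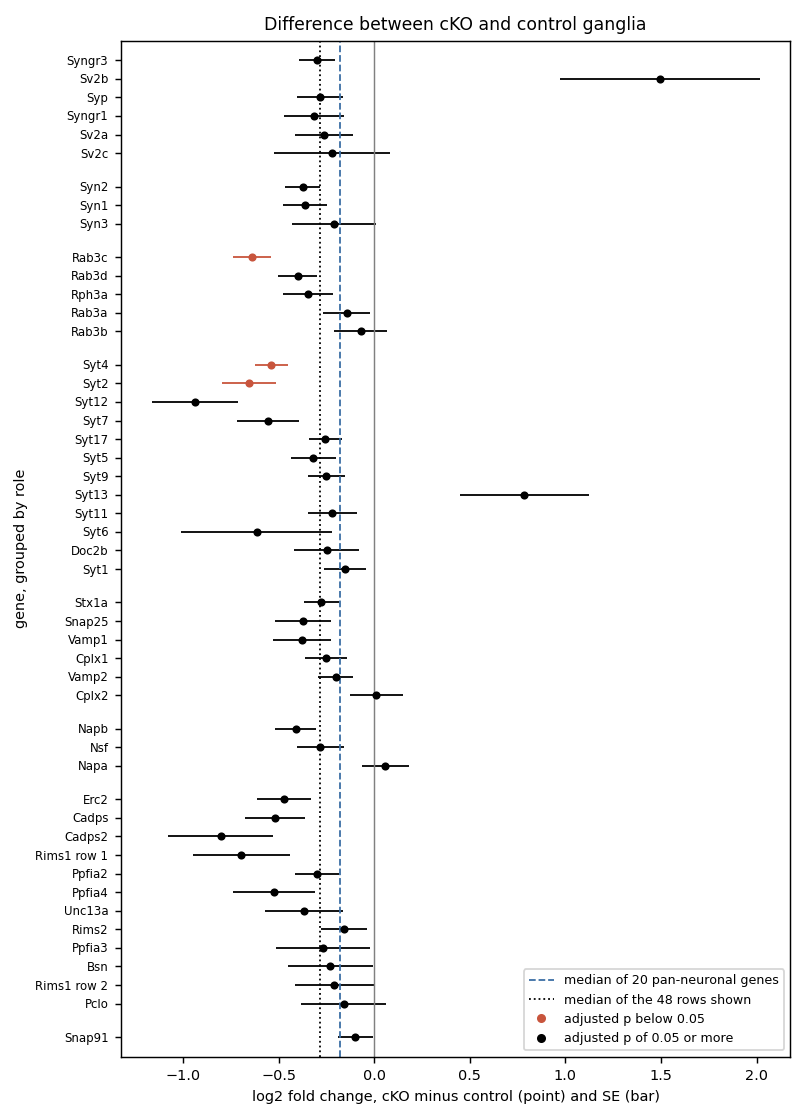
Log2 ratio of cKO to control with SE for the 48 rows by role (n = 4 libraries a group). The 3 red points (Rab3c, Syt4, Syt2) passed at adjusted p below 0.05, and the lines mark the median of the 48 rows (-0.28, dotted) and of the pan-neuronal genes (-0.18, dashed).

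Of the vesicle membrane proteins, 0 of 6 passed, 5 had negative fold changes and the median was -0.27. Syp encodes synaptophysin, an abundant protein of the vesicle membrane that binds synaptobrevin, and was at 587, 439, 517 and 507 CPM in controls and 445, 361, 397 and 481 CPM in cKO. Control 2 was under cKO 1 and cKO 4, so the groups overlapped (log2 ratio -0.28, SE 0.12; edgeR adjusted p = 0.270). Sv2a, a transporter-like vesicle glycoprotein, was at 154, 132, 111 and 130 CPM in controls and 133, 82.2, 109 and 113 CPM in cKO, again with overlap (log2 ratio -0.26, SE 0.15). Sv2c, its paralog, spread more within groups than between them, from 105.1 to 208.6 CPM in controls and from 83.07 to 216.9 CPM in cKO (log2 ratio -0.22, SE 0.31). Syngr3, a synaptogyrin, was at 289 ± 19.0 and 234 ± 16.9 CPM without overlap (log2 ratio -0.30, SE 0.09; adjusted p = 0.128), and Syngr1 had a log2 ratio of -0.31 (SE 0.16). Sv2b had the largest positive log2 ratio, 1.50 (SE 0.52; adjusted p = 0.170), on 5 to 12 counts in controls and 13 to 53 in cKO. Without cKO 4, which holds the 53, its log2 ratio was 0.78 (edgeR adjusted p = 0.332).

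The synapsins, phosphoproteins that cluster the reserve pool of vesicles, gave 0 of 3 past the threshold, 3 negative fold changes and a median of -0.36. Syn2 was at 801, 939, 938 and 855 CPM in controls and 667, 644, 674 and 740 CPM in cKO. All 4 cKO libraries were under all controls (log2 ratio -0.37, SE 0.09; edgeR adjusted p = 0.0597). Syn1 was at 307, 244, 285 and 296 CPM in controls and 238, 193, 206 and 244 CPM in cKO, with control 2 level with cKO 4 (log2 ratio -0.36, SE 0.11; adjusted p = 0.129). Syn3, whose locus holds Timp3 on the other strand and which shares 14.2% of its 50-base stretches with other genes, had a log2 ratio of -0.21 (SE 0.22). Within the family, Syn2 made up 56.6% of the level per length in controls and 56.2% in cKO.

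The SNARE proteins, whose bundle drives membrane fusion, and the complexins gave 0 of 6 past the threshold, 5 negative fold changes and a median of -0.27. Snap25, a plasma membrane SNARE, was at 624, 803, 782 and 743 CPM in controls and 440, 640, 520 and 679 CPM in cKO. Control 1 was lower than cKO 2 and cKO 4, and the log2 ratio was -0.37 (SE 0.15; edgeR adjusted p = 0.220). Vamp2, synaptobrevin of the vesicle membrane, was at 528, 490, 509 and 530 CPM in controls and 439, 408, 443 and 498 CPM in cKO, where cKO 4 exceeded control 2 (log2 ratio -0.20, SE 0.09; 0.0024 when scaled to pan-neuronal genes). Stx1a, a plasma membrane syntaxin, was at 150, 160, 160 and 155 CPM in controls and 120, 121, 134 and 141 CPM in cKO without overlap (log2 ratio -0.28, SE 0.09; adjusted p = 0.146). Vamp1, Cplx1 and Cplx2 had log2 ratios of -0.38 (SE 0.15), -0.25 (SE 0.11) and 0.01 (SE 0.14). Cplx1 was at 388, 448, 456 and 465 CPM in controls and 313, 385, 363 and 413 CPM in cKO, with overlap.

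The SNARE disassembly genes gave 0 of 3 past the threshold, and the SNAP isoforms stood on opposite sides of 0. Napb, the neuronal beta-SNAP that couples NSF to SNARE complexes, was at 228, 286, 238 and 270 CPM in controls and 175, 186, 202 and 206 CPM in cKO. The groups did not overlap (log2 ratio -0.41, SE 0.11; edgeR adjusted p = 0.0693). Napa, the widely expressed alpha-SNAP, had a log2 ratio of 0.06 (SE 0.12), and Nsf, the ATPase itself, one of -0.28 (SE 0.12). Of the Napa and Napb level per length, Napb made up 42.8, 45.7, 37.6 and 41.5% in control 1 to 4 and 36.0, 32.2, 36.2 and 32.7% in cKO 1 to 4, without overlap. Napa is also made by cells that are not neurons, whose markers were higher in cKO, and their part in this shift was not tested.

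The active zone and priming genes gave 0 of 12 rows past the threshold, but all 12 rows had negative fold changes (median -0.33; Rims2 and Pclo turned to 0.05 and 0.04 when scaled to pan-neuronal genes). Erc2, a scaffold that binds the calcium channel and RIM complex, was at 126, 126, 85.3 and 112 CPM in controls and 87.8, 67.5, 86.9 and 81.8 CPM in cKO. Control 3 lay within the cKO range, and the log2 ratio was -0.47 (SE 0.14; edgeR adjusted p = 0.115). Cadps, which encodes CAPS, a priming factor of dense-core vesicles, was at 320 ± 51.3 and 224 ± 43.9 CPM without overlap (log2 ratio -0.52, SE 0.16; adjusted p = 0.118), and its rarer paralog Cadps2 had a log2 ratio of -0.80 (SE 0.28) at 3.81 ± 0.993 and 2.18 ± 0.708 CPM. The liprins Ppfia2, Ppfia3 and Ppfia4, which organise scaffolds, had log2 ratios of -0.30 (SE 0.12), -0.27 (SE 0.25) and -0.52 (SE 0.21). The giant scaffolds Bsn and Pclo and the priming factor Unc13a had -0.23 (SE 0.22), -0.16 (SE 0.22) and -0.37 (SE 0.20). The RIM genes, which link Rab3 to the active zone, had -0.69 (SE 0.25) and -0.21 (SE 0.21) on the 2 rows of Rims1 and -0.16 (SE 0.12) for Rims2. Snap91, the clathrin adaptor AP180 of vesicle recycling, was at 367 ± 16.6 and 342 ± 26.9 CPM (log2 ratio -0.10, SE 0.09; 0.10 when scaled to pan-neuronal genes).

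The vesicle genes were next set against the general neuronal content of each library. The mean log2 CPM of the 48 rows was 6.72 ± 0.086 in controls and 6.43 ± 0.141 in cKO, and that of the 20 pan-neuronal genes, which include tubulin, Elavl and neurofilament-type genes, 10.03 ± 0.0764 and 9.83 ± 0.0785. All 20 pan-neuronal genes had negative fold changes, with a median of -0.18, and 1 of them passed. The difference between both means was -3.32, -3.24, -3.37 and -3.30 in control 1 to 4 and -3.34, -3.51, -3.43 and -3.31 in cKO 1 to 4, so the groups overlapped on this ratio. When libraries were scaled to the pan-neuronal genes, the median of all tested rows shifted by 0.20, and the 48 rows had a median of -0.08 with 37 negative and 11 positive fold changes. Under that scaling 1 of 48 rows passed as lower, Rab3c (log2 ratio -0.44, SE 0.11; edgeR adjusted p = 0.0281), where 0.644% of all tested rows did. Syt4 was then at -0.34 (adjusted p = 0.0900) and Syt2 at -0.45 (adjusted p = 0.0924), so neither passed.

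**Figure D4:**
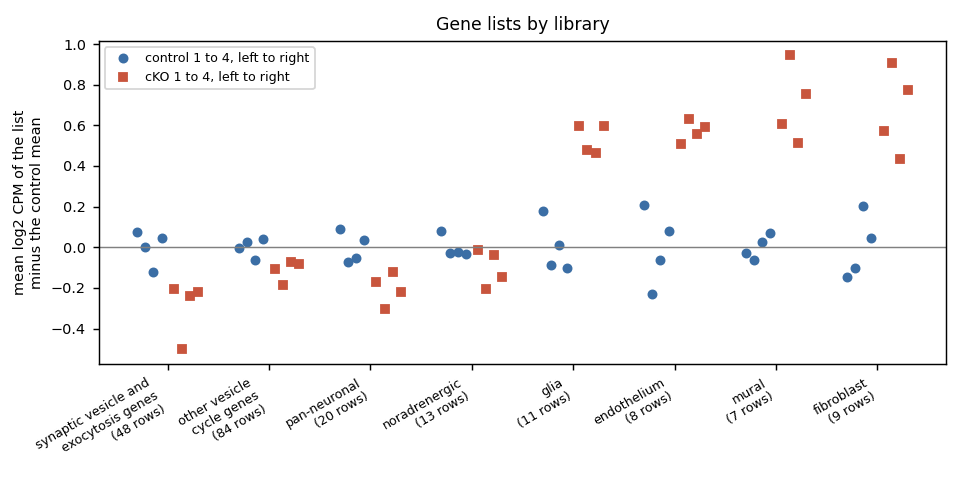
Mean log2 CPM of 8 gene lists in each library, minus the control mean of the list. The vesicle genes lie lower in cKO, by 0.29 on average, the pan-neuronal genes by 0.20, and the lists of non-neuronal cells lie higher.

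Beyond the 47, a list of 92 other genes of the vesicle cycle gave 84 tested genes, of which 2 passed as lower, 1 as higher and 81 did not. Their median log2 ratio was -0.14, with 59 negative and 25 positive, and 10 of 84 (11.9%) did not overlap with cKO lower. Amph, amphiphysin of clathrin-mediated vesicle retrieval, was at 125, 134, 131 and 126 CPM in controls and 86.8, 82.9, 91.9 and 99.1 CPM in cKO. The groups did not overlap, and the mean fell from 129 ± 4.34 to 90.2 ± 7.01 CPM (log2 ratio -0.52, SE 0.09; edgeR adjusted p = 0.0184). Stxbp6, amisyn, which binds SNARE complexes in place of synaptobrevin, rose from 5.54 ± 0.604 to 10.3 ± 1.69 CPM (log2 ratio 0.90, SE 0.16; adjusted p = 0.0183). The calls of Amph and Stxbp6 were each lost without control 2, control 4, cKO 2 or cKO 3, and that of Amph also when scaled to pan-neuronal genes (log2 ratio -0.32; edgeR adjusted p = 0.0981). Madd, the adaptor between the motor and Rab3, was at 181, 170, 141 and 156 CPM in controls and 153, 102, 139 and 119 CPM in cKO, with overlap (log2 ratio -0.34, SE 0.14; adjusted p = 0.242). Dnm1, the dynamin that cuts vesicles from the membrane, had a log2 ratio of -0.24 (SE 0.13; adjusted p = 0.411).

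Libraries also differed by transcript length. Within each library, the gene's deviation from its group mean in log2(CPM + 1) was ranked against its longest annotated transcript, over the 47 genes and over 13571 tested genes. Spearman's rho over the 47 was 0.41 in control 1, 0.34 in control 2, -0.69 in control 3 and -0.05 in control 4, and 0.52 in cKO 1, -0.47 in cKO 2, 0.30 in cKO 3 and -0.35 in cKO 4. Over the 13571 genes it had the same sign in all 8 libraries, from -0.55 in control 3 to 0.47 in cKO 1. Long genes such as Pclo (111 CPM in control 3, 157 to 166 CPM in the other controls), Bsn and Sv2c were low for their group in control 3, cKO 2 and cKO 4, and the same libraries were not low for short genes such as Rab3b. The log2 ratio itself had a rho of -0.21 with length over the 47 and of -0.15 over all. These are descriptions across genes that share the same 8 libraries, and the part of length in the differences was not tested.

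**Figure D5:**
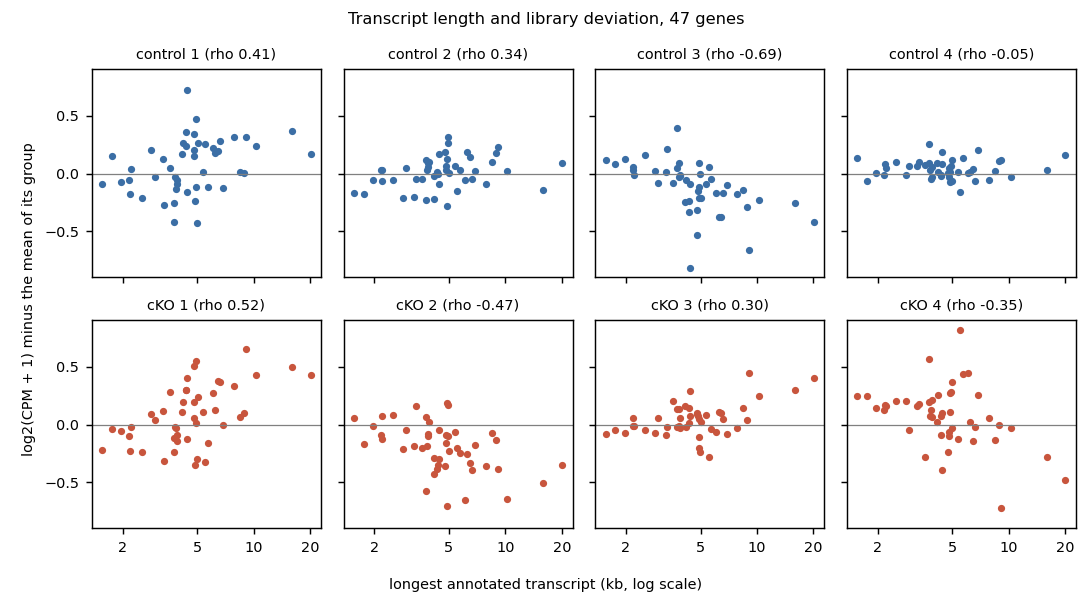
Transcript length (log axis) of the 47 genes against their deviation from the group mean in log2(CPM + 1). Each of the 8 libraries has a panel, with Spearman's rho over the 47 in its title. The slope is downward in control 3 (-0.69 over the 47) and upward in cKO 1 (0.52).

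Many genes of the synapse carry near their start a site for the repressor REST, which keeps neuronal genes silent in other cells, so the RefSeq promoter windows (GRCm38.p6, 250 bases before to 50 after each start, both strands read) were searched for its element, called RE1 or NRSE. Windows were matched for 35 of the 47 genes. The left arm of the element, TTCAGCACC, was found in 3 of 35 (8.57%: Syn1, Ppfia3 and Unc13a), against 0.555% of 10640 tested genes and 0.433% of all 27025 genes with a window. The right arm, GGACAGCGC, was found in 1 of 35 (2.86%, Unc13a), against 0.827% of tested genes. The GC box GGGCGG was found in 82.9% of the 35 and 68.0% of tested genes, and the cyclic AMP response element TGACGTCA in 5.71% (Napa and Syn1) and 3.52%. Printed here are parts of the windows of the genes with an arm of the element, and of that of Rab3c, the gene with the smallest p, where neither arm occurs. Ppfia3 and Rab3c are given by the 250 bases before the RefSeq start, Syn1 by 164 of these bases, which end before an annotated exon, and Unc13a by the 26 bases that hold both arms. The Rab3c bases lie within the gene as GENCODE vM21 places it, where the minus-strand gene begins further upstream, at 110280996. Bases before that start were not searched. Capitals mark the arms, GC boxes and cyclic AMP response elements on either strand, and each line runs 5′ to 3′ along the gene.
Syn1, chrX:20921005-20921168, minus strand: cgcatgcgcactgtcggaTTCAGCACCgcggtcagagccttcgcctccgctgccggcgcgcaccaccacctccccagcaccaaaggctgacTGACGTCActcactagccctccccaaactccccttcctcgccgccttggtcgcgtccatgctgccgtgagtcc
Ppfia3, chr7:45367020-45367269, minus strand: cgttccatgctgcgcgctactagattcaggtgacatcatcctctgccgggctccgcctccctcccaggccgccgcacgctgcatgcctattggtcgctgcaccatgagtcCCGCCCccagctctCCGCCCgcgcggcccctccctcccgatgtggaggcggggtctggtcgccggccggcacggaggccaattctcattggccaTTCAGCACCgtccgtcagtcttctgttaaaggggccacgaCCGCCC
Unc13a, chr8:71671727-71671752, minus strand: GCGCTGTCCgcgcccccGGTGCTGAA
Rab3c, chr13:110280207-110280456, minus strand: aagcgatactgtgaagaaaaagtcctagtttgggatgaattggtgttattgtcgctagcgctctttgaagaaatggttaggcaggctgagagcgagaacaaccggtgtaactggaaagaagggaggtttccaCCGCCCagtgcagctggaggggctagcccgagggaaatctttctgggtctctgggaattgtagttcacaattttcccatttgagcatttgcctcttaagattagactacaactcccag
Syn1 and Ppfia3 hold the left arm in the sense of the gene, while Unc13a has both arms on the other strand, separated by a short GC-rich spacer, just after its start. Syn1 also holds a complete cyclic AMP response element, and the printed bases hold 3 GC boxes in Ppfia3 and 1 in Rab3c. A match describes letters only, and its absence says only that these letters are not in the window. The genes with an arm, Syn1, Ppfia3 and Unc13a, did not pass the test, as given with their roles.

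All 3 calls among the 47 genes rest on 4 animals a group, and 0 of the 48 rows passed by edgeR without control 2 or without control 4, where 18 and 16 rows were lower at an unadjusted p below 0.05 (5.06% and 5.05% of all tested rows in the same fits). Control 4 and cKO 4 had the highest summed level of sensory neuron markers. Without both, edgeR passed 0 rows, and 19 were lower at an unadjusted p below 0.05, against 5.03% of all tested rows. Rab3c was then at an edgeR adjusted p of 0.106 and Syt4 at 0.096, while the median log2 ratio was -0.32. Without control 1 and cKO 1 together, 3 rows passed (Rab3c, Syt4 and Syt7) and the median was -0.29. By DESeq2's Wald test 14 rows passed as lower, against 3.06% of all tested rows, so the number of calls depends on the tool.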

How the data were processed

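RNA-seq of polyadenylated RNA was made with TruSeq v2 from the ganglion pair of each of 8 animals, after an RNA integrity filter, per the labels' protocols. The deposited table gives raw counts per gene symbol. Per the submitters' processing notes, STAR and the build mm10 were used upstream; the counting tool, and if it read strand, is not stated in any source used here. The 8 columns were assigned by the sample titles. Replicates differed by more than sampling noise (chi-square per gene 7.72 to 55.5).

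The test on counts was edgeR's (version 4.0.16, R 4.3.3; TMM, filterByExpr with its minimum count of 10, robust quasi-likelihood fit with no covariate) over all tested rows, with Benjamini-Hochberg adjustment and a threshold of 0.05. The SE is the absolute log2 ratio over the square root of F. Log2 CPM used a prior count of 2. Permutation tests, run only for members past the threshold, used all 70 assignments. Exon lengths, overlaps and shared 50-base stretches came from GENCODE vM21 (GRCm38), and promoters from RefSeq. In simulated data for 14592 genes, the fit recovered 50.7% of genes changed 1.5-fold, 71.6% of those changed 2-fold and 93.9% of those changed 4-fold. Of its calls there, 8.28% were false. Differences under 1.5-fold were not simulated. Counts were drawn for each gene on its own, without deviations that many genes share in a library, such as those with transcript length. The recovery and false calls in the real libraries may thus differ from these. Alternatives were other scalings, filters and tools (DESeq2 1.42.0, limma 3.58.1), a replicate block and libraries left out. Values by library were given for genes past the threshold, the 6 next by p, the 3 most abundant per length and a representative of each role; Cadps, Syngr3 and others beyond that were chosen after their values were seen. The members and lists were chosen with earlier results of these data known. Some genes of the other vesicle cycle list are not reported here by name, though its counts include them.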

Additional observations from a re-analysis of the deposited data

Results flagged for a closer look

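In 96 groups of 4 libraries (48 rows, 2 groups each), 2 libraries stood far from the other 3 of their group by Dixon's criterion, which chance reaches in about 1 group in 20. Sv2b was at 2.859 CPM in cKO 4 and between 0.7428 and 0.8956 CPM in the other cKO libraries, and without cKO 4 its log2 ratio was 0.78 in place of 1.50. In cKO 4 the summed level of sensory neuron markers was also highest, at 174.5 CPM, against 30.51 to 47.37 CPM in the other cKO libraries and 30.18 to 76.3 CPM in controls. The markers in this sum, P2rx3, Avil, Scn10a, Trpv1 and Prrxl1, held 4652, 1905, 1259, 518 and 149 counts in all 8 libraries together. Prdm12 and Pou4f1, which were not tested and are not in the sum, held 10 and 69 counts. The part of sensory neuron RNA in the Sv2b level was not tested. Pclo was at 110.5 CPM in control 3 and between 157.4 and 166.4 CPM in the other controls, and control 3 is the library with the most negative rho (-0.69 over the 47 genes) between transcript length and the deviation from the mean of its own group.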

How the results depend on the processing

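The 3 members lower in cKO became 1 with scaling to pan-neuronal genes, 14 with DESeq2, 7 with the replicate block and 0 with control 4 and cKO 4 left out together, and 0 to 5 with 1 library left out. The members' median log2 fold change was -0.0778 with scaling to pan-neuronal genes and -0.36 to -0.24 with 1 library left out. Of all genes, 163 were lower and 234 higher; these counts were 94 and 1116 with scaling to pan-neuronal genes, 447 and 565 with DESeq2, 262 and 425 with the replicate block, 39 and 26 without control 4 and cKO 4, and 40 to 196 and 33 to 318 with 1 library left out. The number of other vesicle cycle genes that passed was 3, and 6, 12 and 1 with scaling to pan-neuronal genes, DESeq2 and control 4 and cKO 4 left out, and 0 to 4 with 1 library left out. The cause of these changes was not tested. After each gene's group mean was taken from its log2 CPM, the deviations of same-numbered control and cKO libraries correlated at 0.725, 0.352, -0.302 and 0.265. These are correlations of what is left within groups, not of whole expression profiles. Not every library correlated best with its own number on this measure, and the numbers were not taken to pair animals. The 7 calls under the block were Rab3c, Rab3d, Syt2, Syt4, Syt7, Syt12 and Cadps. Other scalings and filters and limma voom (4 members) left the count within 1.5 times. With 5 to 53 counts for Sv2b, depth limits the rarest members.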
